A study of Drosophila melanogaster with 2 samples.

Results

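The 9 genes described here encode parts of cohesin and condensin and a loader of cohesin. They were taken by symbol from 13986 protein-coding genes of the fly annotation. The cohesin genes, as counted here, were vtd, SMC1, SMC3 and the loader gene Nipped-B. The condensin genes were Cap-H2, Cap-G, Cap-D2, Cap-D3 and barr. Binding of ZIPIC (CG7928) was mapped by chromatin immunoprecipitation and sequencing (ChIP-seq) in whole embryos aged 0 to 24 h, with both sexes pooled. The embryos came from 1 transgenic line, which stably expresses CG7928 with GFP at its C terminus, and an antibody to GFP was used for the precipitation. The sources used here do not name the promoter that drives the fusion. The series held 2 biological replicates, numbered 2 and 3, in 1 group, so no condition was compared with another, and whole embryos do not show which cells carried a signal.

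Cohesin and condensin are ring-shaped complexes built on paired SMC ATPases that are closed by a kleisin subunit. Cohesin holds sister chromatids together and forms chromatin loops, and condensin compacts chromosomes for mitosis. In flies condensin I contains the kleisin barr with Cap-G and Cap-D2, and condensin II contains the kleisin Cap-H2 with Cap-D3. ZIPIC is a zinc-finger protein of the insulator class, which binds DNA directly and recruits CP190.

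The genes lay on 5 chromosome arms of the dm6 assembly, with coordinates counted from 1. Among the cohesin genes, vtd (FBgn0260987) lay at 3L: 27136525 to 27157999 and Nipped-B (FBgn0026401) at 2R: 4691672 to 4729017, and SMC1 (FBgn0040283) at 3R: 24058287 to 24062815 and SMC3 (FBgn0015615) at X: 16588996 to 16593439. Among the condensin genes, Cap-G (FBgn0259876) lay at 2R: 13133142 to 13142820 and Cap-D3 (FBgn0051989) at 2L: 5525905 to 5535958. Cap-H2 (FBgn0037831) lay at 3R: 10761310 to 10766756, Cap-D2 (FBgn0039680) at 3R: 29675651 to 29680257 and barr (FBgn0014127) at 2L: 20058163 to 20061370. SMC3, Nipped-B and barr are transcribed from the minus strand and the other 6 genes from the plus strand.

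None of the 4 cohesin genes, and 3 of the 5 condensin genes, had an optimal ZIPIC peak at a start. The condensin genes with a peak were barr, Cap-H2 and Cap-D2. An entry was placed at a start when its summit lay within 500 bp of the first base of any annotated transcript. By this rule 18.3% of all protein-coding genes had an optimal peak. The optimal list is the authors' final set of 2971 peaks, which are also the 2971 strongest of the 30000 entries called on the pooled replicates. Each replicate has a list of 30000 entries of its own, and these lists mix peaks with weaker background. The signal is the authors' own value per entry, on a scale that the sources used here do not give, and it was used to describe and rank entries within a list. With so few genes and a single group, the difference between the complexes was described and not tested. Among the cohesin genes, vtd and Nipped-B started far from any optimal summit, with the nearest at 4257634 bp and 934245 bp. Whether the count of cohesin genes reflects these locations was not tested.

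The pooled list gave the same order of the complexes. It held no start entry for the 4 cohesin genes and an entry for 4 of the 5 condensin genes, against 50.6% of all protein-coding genes. The lowest signal in this list was 34.4. A gene with no entry had no summit listed within 500 bp of a start, and the signal there is not known. The lists of the replicates differed in how many members they held. In replicate 2, 0 of 4 cohesin and 2 of 5 condensin genes had a start entry, against 31.7% of all coding genes. In replicate 3, 3 of 4 cohesin and 5 of 5 condensin genes had one, against 56.3% of coding genes. At the starts of the cohesin genes no signal was therefore listed in both replicates, and at those of the condensin genes barr and Cap-D2 were listed in both.

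**Figure D1:**
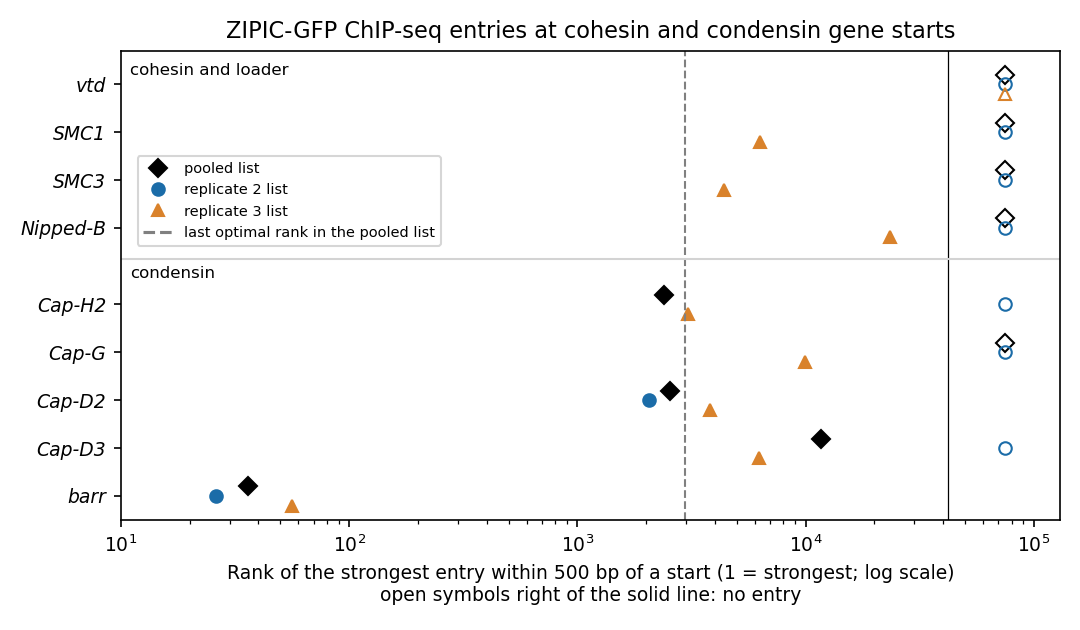
Rank of the strongest entry within 500 bp of a start for each gene (log scale, 1 is the strongest entry), in the pooled list and in the list of each replicate, with open symbols right of the solid line for genes with no entry and a dashed line at the last optimal rank, 2971. The 4 cohesin genes have entries in replicate 3 alone or in no list, and barr lies between rank 26 and rank 56.

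SMC3 and SMC1 encode the ATPases of the cohesin ring. SMC3 had a single start entry, with signal 57.5 and rank 4404 in replicate 3. That summit lay 155 bp from the SMC3 start and nearer to the start of Ubc7, at 83 bp. SMC1 had a single start entry too, with signal 46.6 and rank 6309 in replicate 3, 52 bp upstream of its start. Both lay beyond rank 2971 in their own replicate, and neither gene had an entry in the pooled or the replicate 2 list at its start. The nearest optimal summits lay at other genes, 5138 bp from the SMC3 start (signal 1449, nearest to CG9784) and 10093 bp from the SMC1 start (signal 1180, nearest to Rox8). In its body SMC3 had 1 further entry, in replicate 3 (signal 20.3), and SMC1 had none in any list.

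Nipped-B, the loader that brings cohesin onto chromosomes, had its start entry in replicate 3 (signal 22.0, rank 23523). That summit lay 399 bp from the start, the largest distance of any member entry inside the window apart from a second Cap-H2 entry in the same replicate at 448 bp. The nearest entry outside the window was a pooled one in Cap-H2, 532 bp from a start. The body of Nipped-B spans 37346 bp and held 10 pooled entries, or 2.68 per 10 kb, against 1.74 per 10 kb over the bodies of all protein-coding genes. The replicates differed in direction, with 2.68 per 10 kb in replicate 2, against 1.77 over all coding genes, and 1.34 per 10 kb in replicate 3, against 1.84. The signals of the pooled entries ran from 34.4 to 96.1, and the strongest of them, 2855 bp from the start, ranked 4427. An entry near that place was listed in replicate 2 (signal 48.3, rank 4041) and in replicate 3 (signal 43.3, rank 7153). None of these body entries belonged to the optimal set, whose nearest summit on the arm lay 934245 bp from the start.

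The kleisin gene vtd, which encodes the Rad21 subunit, had no entry at its start in any of the lists. Its body of 21475 bp held 3 pooled entries, 1.40 per 10 kb, all in introns. In the replicates the density was 2.33 per 10 kb in replicate 2 and 0.931 per 10 kb in replicate 3, so that vtd too lay above all coding genes in replicate 2 and below them in replicate 3. The strongest pooled entry (signal 65.6, rank 8021) lay 784 bp from the start, and entries that overlap it were listed in replicate 2 (signal 29.3, 732 bp from the start) and in replicate 3 (signal 37.5, 841 bp). The nearest optimal summit lay 4257634 bp away, nearest to the start of Chro. Within 20000 bp of the vtd start no other protein-coding gene began.

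**Figure D2:**
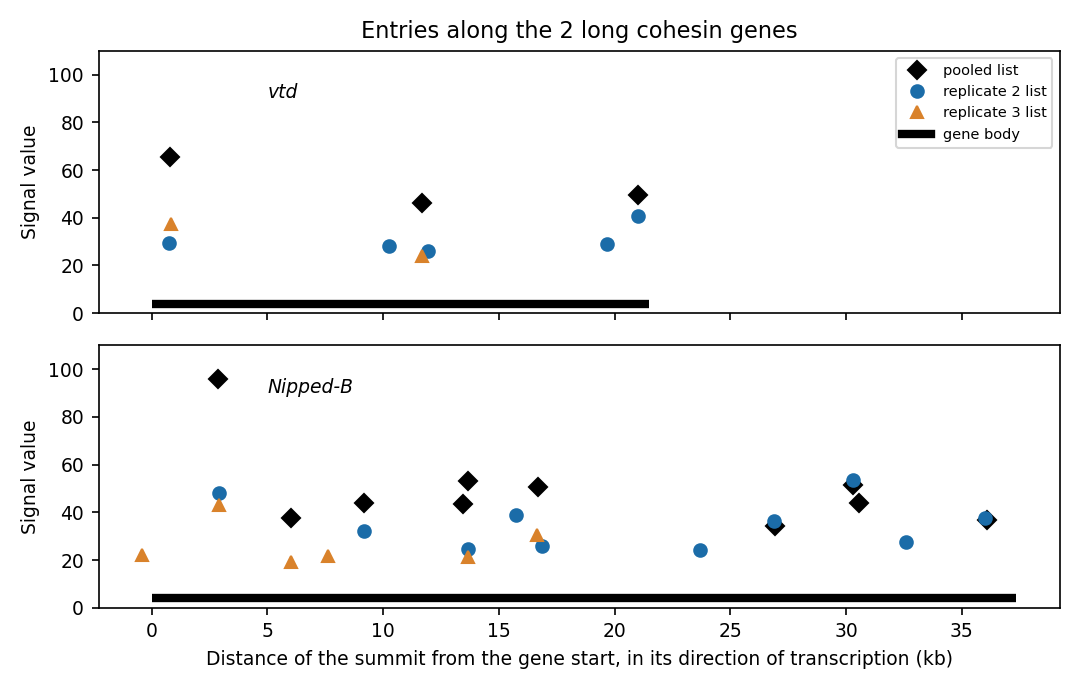
Signal of every entry at the start or in the body of vtd (top) and Nipped-B (bottom), against the distance of its summit from the gene start in kb, with a symbol for each list and a black bar for the gene body. The pooled signals in both genes are at most 96.1, below the lowest optimal signal of 126, and the signals of the replicates are on the scales of their own lists.

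The strongest binding at any of the 9 genes was at barr, the kleisin gene of condensin I. The peak spanned 2L: 20060799 to 20061766 and held 2 summits, 246 bp apart, within a single interval. The summit in the 5' UTR of barr had signal 3332 and rank 36, and the summit in the 5' UTR of the neighbouring gene lok had signal 1836 and rank 168. lok encodes the checkpoint kinase Chk2, and its start faces away from that of barr at a distance of 52 bp. By its strongest start entry barr was in place 56 among the 7083 coding genes with a pooled start entry. Of all optimal entries, 3.1% shared their interval with another optimal entry.

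Both summits of barr were present in each replicate. In replicate 2 the barr-side summit had signal 2022 (rank 26) and the lok-side summit 865 (rank 204). In replicate 3 they had signals of 1317 (rank 56) and 985 (rank 120). The barr-side summit was the stronger in each replicate, by 2.34 times in replicate 2 and 1.34 times in replicate 3. The distance between the summits was 252 bp in replicate 2 and 220 bp in replicate 3. The barr-side summits of the lists lay 141 to 162 bp inside the gene, counted from its upstream start.

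Strings of the ZIPIC core lay beside the summits of barr and beside the weaker entry of Cap-D3, and these sites are shown because no other listed start entry of a member had a core string within 50 bp of its summit. The strings searched were CAGGGCTG and its shorter form AGGGNTG, on both strands, and every CAGGGCTG also holds AGGGNTG. The sites are written 5′ to 3′ on the strand of the match, with the match in capitals, from Release 6 of the genome (dm6, NCBI reference sequence):
barr-side summit (2L:20061205-20061212, plus strand, 8 bp from the summit, 5' UTR of barr): tttaagttCAGGGCTGcacaggtc
lok-side summit (2L:20061474-20061480, minus strand, 14 bp from the summit, 5' UTR of lok): cgccttccAGGGATGgggtgatt
Cap-D3 pooled summit (2L:5525814-5525821, minus strand, 31 bp from the summit, exon of asRNA:CR44793): tacaaaatCAGGGCTGatatatta
Distances run to the middle of the match. The barr-side and Cap-D3 sites hold the same 8 letters, at entries with pooled signals of 3332 and 54.1. Among all optimal peaks, 7.51% held CAGGGCTG and 17.0% held AGGGNTG in the 100 bp around the summit. The other strings searched were CGATA (bound by BEAF-32), TATCGATA (DREF), GGTCACACT (M1BP) and GAGAG (GAGA factor). In the same windows CGATA lay at the barr-side summit, against 22.9% of optimal peaks, and GAGAG at the Cap-D2 summit, against 9.02%. The 51 bp between the barr and lok starts held none of the 6 strings.

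Cap-D2, a HEAT-repeat subunit of condensin I, had an optimal peak of signal 140.3 and rank 2552 (3R: 29675332 to 29675741). Its intergenic summit lay 114 bp from the start of Cap-D2 and 116 bp from that of Bub3, a spindle checkpoint gene that faces away from it. The entry had signal 73.4 (rank 2055) in replicate 2 and 62.1 (rank 3812) in replicate 3. Its summit was nearer to Bub3 in replicate 2 (105 bp against 125 bp) and nearer to Cap-D2 in replicate 3 (101 bp against 129 bp). The peak was thus among the 2971 strongest in replicate 2 and not in replicate 3.

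Cap-H2, the kleisin of condensin II, had an optimal peak of signal 147 and rank 2409 (3R: 10760919 to 10761328). Its intergenic summit lay 186 bp from the start of Cap-H2 and 92 bp from that of MED7, which encodes a Mediator subunit and also faces away. It was listed in replicate 3 (signal 70.9, rank 3048) and had no entry in replicate 2. A second entry in replicate 3 (signal 31.8, rank 12580) lay in an intron, 448 bp from the inner of the 2 Cap-H2 starts and 423 bp from the start of the noncoding gene asRNA:CR45016. In strength the peaks at Cap-H2 and Cap-D2 lay near the end of the optimal set, whose lowest signal was 126. Their deposited −log10 q-values were 3.21 and 2.59, against the list's highest value of 3.65 for both barr summits. That highest value was shared by 2211 of the 2971 optimal entries.

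The stretches between the head-to-head starts at Cap-D2, at Cap-H2 and at SMC3 are printed to set peaks without a ZIPIC core string beside a promoter of the same arrangement that had no optimal peak. Each is read 5′ to 3′ on the strand of the member, from the base after the neighbour's start to the base before the member's start, and capitals mark CGATA on either strand, adjoining matches run together:
SMC3 with Ubc7 (X:16593440-16593676, minus strand): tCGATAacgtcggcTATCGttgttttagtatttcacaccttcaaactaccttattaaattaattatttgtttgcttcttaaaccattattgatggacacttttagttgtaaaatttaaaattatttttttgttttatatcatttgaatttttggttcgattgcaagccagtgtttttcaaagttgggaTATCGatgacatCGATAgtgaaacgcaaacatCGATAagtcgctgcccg
Cap-H2 with MED7 (3R:10761033-10761309, plus strand): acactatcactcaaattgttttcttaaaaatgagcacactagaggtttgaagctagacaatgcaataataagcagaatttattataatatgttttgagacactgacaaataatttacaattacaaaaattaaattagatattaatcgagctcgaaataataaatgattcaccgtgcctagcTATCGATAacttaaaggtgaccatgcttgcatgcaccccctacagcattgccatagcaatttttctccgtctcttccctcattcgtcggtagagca
Cap-D2 with Bub3 (3R:29675422-29675650, plus strand): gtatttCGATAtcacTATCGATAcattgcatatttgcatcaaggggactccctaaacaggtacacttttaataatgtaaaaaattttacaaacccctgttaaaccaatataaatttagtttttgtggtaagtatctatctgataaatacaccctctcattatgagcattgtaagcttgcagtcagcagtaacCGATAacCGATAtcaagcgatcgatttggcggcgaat
The SMC3 and Cap-D2 stretches are intergenic, and that of Cap-H2 overlaps an exon of asRNA:CR45016. None of the 3 held AGGGNTG. All 3 held CGATA, with 5 matches at SMC3, 2 at Cap-H2 and 5 at Cap-D2. The Cap-H2 and Cap-D2 stretches also held TATCGATA, 89 bp and 207 bp from the member's start, and each TATCGATA accounts for 2 of the CGATA matches. Of 1857 such stretches between coding genes with starts up to 500 bp apart, 58.2% held CGATA, 16.7% held TATCGATA and 15.5% held AGGGNTG. A match is a letter string and not a measured site.

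**Figure D3:**
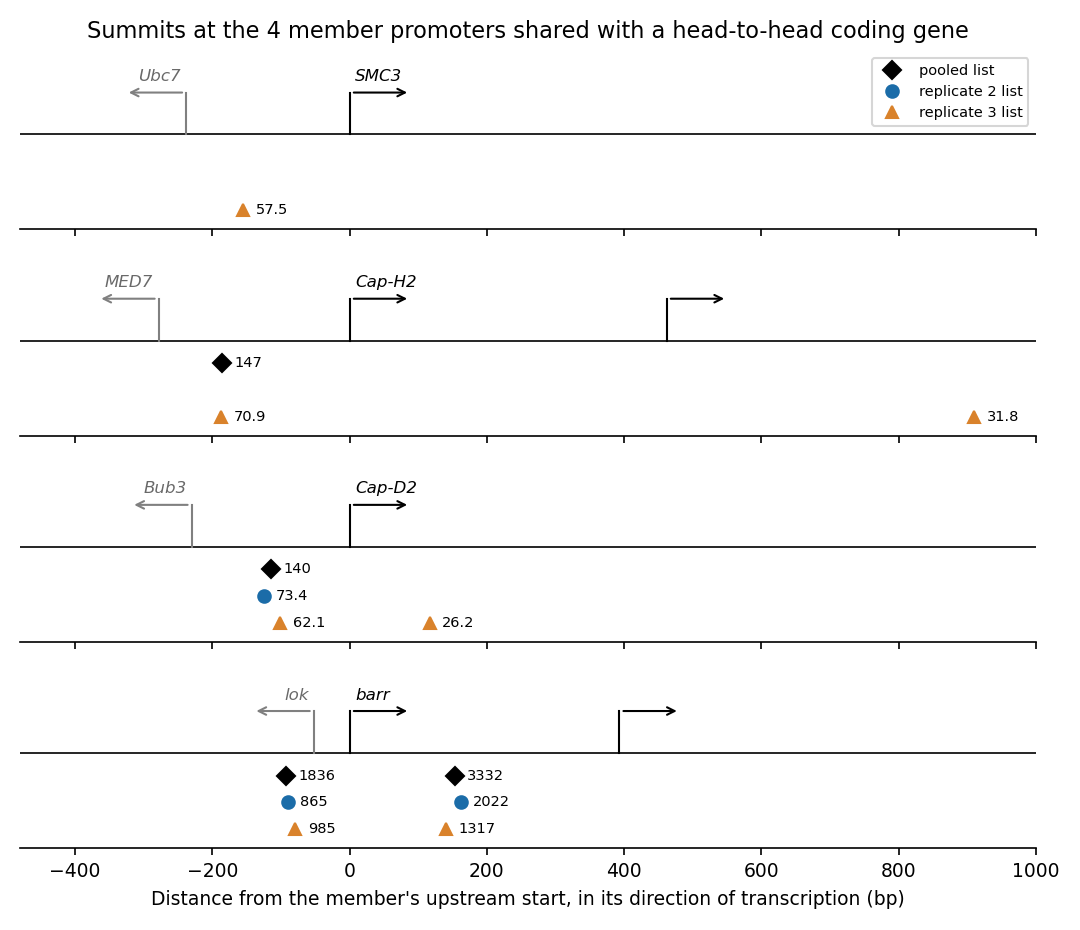
Summits at the 4 member promoters that share a head-to-head coding neighbour, against the distance in bp from the member's upstream start in its direction of transcription, with bent arrows for starts of the member (black) and of its neighbour (grey) and the signal beside each symbol. At barr both summits lie at similar places in every list, and at SMC3 the only summit is that of replicate 3.

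Cap-D3 and Cap-G, the HEAT-repeat subunits of condensin II and condensin I, had no optimal peak. Cap-D3 had a pooled entry 56 bp from its start with signal 54.1 and rank 11637, within an exon of the noncoding gene asRNA:CR44793. It was listed in replicate 3 (signal 46.9, rank 6238) and not in replicate 2. The deposited −log10 q-value of the Cap-D3 entry was 0.415 in the pooled list and 2.44 in replicate 3. Cap-G had 2 start entries in replicate 3, with signals of 36.2 (rank 9914) and 22.4 (rank 22885), and none in the pooled or the replicate 2 list. The nearest optimal summits lay 183134 bp from the Cap-D3 start and 25384 bp from the Cap-G start.

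In the gene bodies, away from the starts, the cohesin genes held 13 pooled entries and the condensin genes 3. The counts were 15 and 0 in replicate 2, and 8 and 4 in replicate 3, and the optimal list held none for either complex. These counts are not scaled by length, and Nipped-B (37346 bp) and vtd (21475 bp) are the longest members. Per 10 kb, replicate 3 gave at most 2.25 in a cohesin gene (SMC3) and 3.12 in a condensin gene (barr), each from 1 entry. Over all coding genes it gave 1.84. The cohesin entries lay in the long genes vtd and Nipped-B, apart from that of SMC3 in replicate 3. Cap-H2 had 2 pooled body entries in its coding sequence, with signals of 42.6 and 36.8. barr had a body entry in its coding sequence in the pooled list (signal 39.2, rank 23148) and in replicate 3 (signal 35.1, rank 10463). Per length these shorter genes had higher pooled densities than Nipped-B, at 3.67 per 10 kb for Cap-H2 and 3.12 per 10 kb for barr, from 2 entries and 1 entry. In replicate 3 Cap-D3 had 2 body entries, with signal 23.2 at 50 bp from the start of CG31915 and signal 21.9 at 139 bp from that of Coq6. Cap-G had 1 in its coding sequence (signal 18.9), and Cap-D2 had none in any list.

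Support from the replicates separated barr from the other members with a peak. Of the 3, 1 had its strongest start peak among the 2971 strongest entries of both replicates, namely barr. Among all 2561 protein-coding genes with an optimal peak, 59.2% met this rule. When an entry anywhere in both replicate lists was accepted, 2 of the 3 met it, barr and Cap-D2, against 71.8% of the same 2561 genes. Taken from the 2971 strongest entries of replicate 3 alone, that is, without replicate 2, 1 of the 5 condensin genes was bound (barr), against 20.1% of all coding genes. Without replicate 3 it was 2 of 5 (barr and Cap-D2), against 13.6% of all coding genes. In both cases the count of cohesin genes was 0.

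All 3 members with a peak had a close head-to-head neighbour, and so had SMC3, which had no peak. A protein-coding neighbour started within 500 bp of 1 of the 4 cohesin genes (SMC3, 238 bp from Ubc7) and of 3 of the 5 condensin genes (barr, Cap-D2 at 230 bp and Cap-H2 at 278 bp). Of these 4 members 3 had an optimal peak, against 36.1% of the 4314 protein-coding genes with such a neighbour. Of the 5 members without one, 0 had a peak, against 10.4% of 9672 genes. The complexes thus also differed in how many of their genes have a close neighbour, and its part in the difference in binding was not tested. For SMC1 and Cap-G the nearest coding starts lay at 977 bp (Hsp68) and 687 bp (CG13326), both head-to-head. Of the 4 optimal summits at member starts, 2 were nearer to the start of the neighbour, those at Cap-H2 and the lok-side summit of barr. Taking each gene's strongest peak, the neighbour was nearer at 1 of the 3 members (Cap-H2), against 30.4% of all coding genes with a peak. These peaks cannot be assigned to 1 gene of a pair.

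Peaks lay at other genes of the pathway, among them partners of the 4 cohesin genes. The list held 25 symbols, which stand for 24 genes because jnj is another name of SMC6, and 7 of them (29.2%) had an optimal peak, against 18.3% of all coding genes. By group, a peak lay at 4 of 15 cohesin-associated genes, 1 of the 2 SMC genes of condensin and 2 of 7 SMC5/6 genes. SA1, a stromalin subunit of cohesin, had a peak of signal 2350 and rank 87 (2L: 6950062 to 6950543), with rank 87 in replicate 2 and rank 100 in replicate 3. Its summit lay 107 bp from SA1 and equally far from the start of Gas41. The peak at dmt, a cohesion-protecting factor, had signal 3427 and rank 32 (3R: 9710868 to 9711249), with rank 31 in replicate 2 and rank 40 in replicate 3, and lay nearer to trbd (26 bp) than to dmt (79 bp). In the pooled list dmt thus ranked just above barr (rank 36), and SA1 between the ranks of the 2 barr summits.

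Weaker peaks lay at pds5, which regulates cohesin release (signal 451, rank 663), and at Mau2, the partner of Nipped-B in loading (signal 145, rank 2442). The pds5 summit lay nearer to the start of Mppe (108 bp) than to that of pds5 (170 bp). The Mau2 peak had no entry in replicate 2, and that at pds5 ranked 594 in replicate 2 and 851 in replicate 3. SMC2, an ATPase of condensin, had signal 224 and rank 1358, with ranks of 1380 in replicate 2 and 1332 in replicate 3. glu, which encodes the partner ATPase of SMC2, had an entry in replicate 3 alone (signal 46.5, rank 6338). All 7 listed genes with a peak had the start of another gene within 500 bp of the summit, as did 63.5% of all coding genes with an optimal peak. The counts of the complexes depend on which subunits are listed. With SA1 counted, 1 of 5 cohesin genes had a peak, and with SMC2 and glu counted, 4 of 7 condensin genes did. This recount leaves out Mau2, the partner of the listed Nipped-B, and pds5, which also had a peak each. It also leaves out SA2, which had no start entry in any list.

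**Figure D4:**
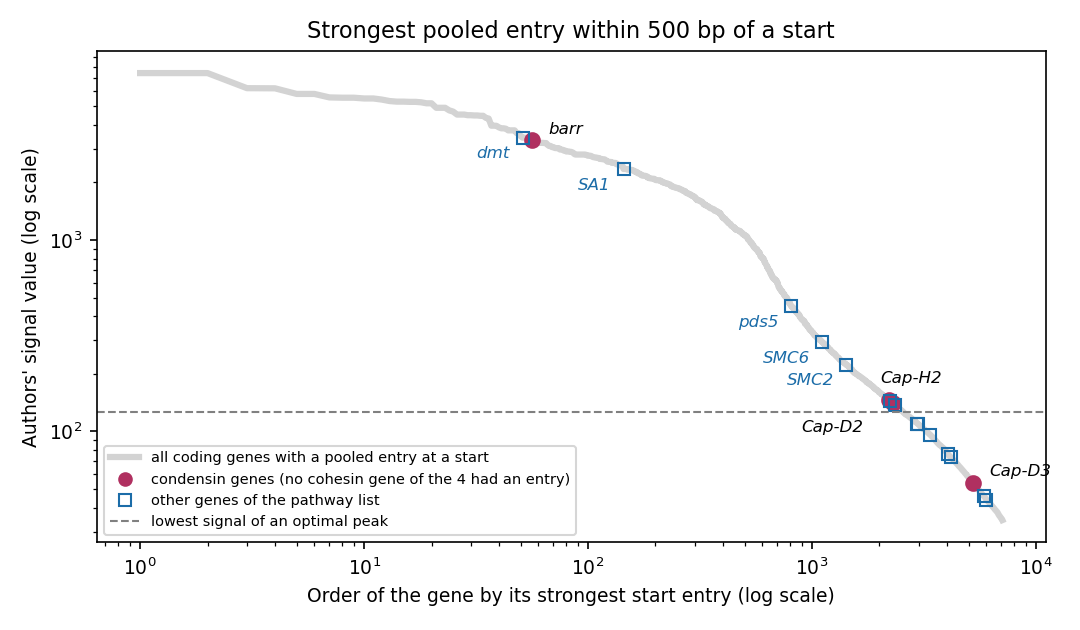
Signal of the strongest pooled entry within 500 bp of a start, for all 7083 protein-coding genes with one, in order of strength (both axes are log scales), with filled circles for condensin genes, open squares for the other genes of the pathway list and a dashed line at the lowest optimal signal of 126. barr lies with dmt and SA1 near the top, and Cap-H2 and Cap-D2 lie just above the line.

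The genes most like barr and Cap-D2 in the replicates were found by the distance between log2 signals of the strongest start entries over 2 replicates, among 3169 coding genes with an entry in both. CG17597 and ScpX, which share an entry, were nearest to barr at 0.067, with signals of 1931 in replicate 2 and 1313 in replicate 3. ArgRS-m and CG17816, which also share an entry, were nearest to Cap-D2 at 0.051, with signals of 74.1 and 64.2. The other 7 members lacked a start entry in at least 1 replicate.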

How the data were processed

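The 4 dm6 peak lists were used: the optimal list, the pooled list and 1 list for each replicate. According to the deposited descriptions, the candidate lists were input for an irreproducible discovery rate (IDR) procedure and the optimal list its output, and the candidate lists derive from the replicates' alignments with 1 further file they share, whose role is not stated. The sources used here name no peak caller or aligner. The deposited signal value is a score per entry, the deposited −log10 q-value was given only as a description, and the deposited summit offset set each position. The dm3 lists and the signal tracks were not used. Read depth per sample is unknown, because the lists hold no counts.

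Every entry ended within its chromosome arm of Release 6, the dm6 assembly. Genes came from Ensembl release 115 (BDGP6), with transposable elements left out, and sequence from the NCBI copy of Release 6. A match in a replicate needed an entry that held the summit. Scripts in Python 3.11.15 with numpy 2.4.6 and scipy 1.17.1 were tested on simulated entries. The members and lists were chosen with earlier results of these data known. Named were all members, every gene starting within 500 bp of a summit at a member's start, the listed pathway genes with a peak and, for members listed in both replicates, the most alike gene. Alternatives covered the start window, the peak set, the replicates, the match rule, the choice of starts and the motif window. glu, the Cap-D3 core site, and in the closing observations wapl, solo, Nse1, Sse and c(2)M, were chosen after their values were seen. No test was run.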

Additional observations from a re-analysis of the deposited data

How the results depend on the processing

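No cohesin gene was bound under any of the 6 alternatives tried for that count, nor found in both replicates under any of 7. With no optimal peak to begin from, only leaving out a replicate could have changed the first count. The 1000 bp window could not, because the optimal summit nearest to any cohesin start lay 5138 bp away, from that of SMC3. Without replicate 3 the cohesin genes had no start entry to count. Without replicate 2 their strongest start entry, at SMC3, ranked 4404, beyond the strongest entries that were counted. The second count needs an optimal peak at a start, so all 7 of its alternatives had to give the same result and do not probe it. The condensin count of 3 held at 250 bp, at 1000 bp and with outermost starts alone, and was 1 in the 1485 strongest optimal entries and 1 to 2 when a replicate was left out. The condensin genes found in both replicates numbered 2 when any listed entry counted and 1 otherwise. The share of all coding genes with a peak was 15.4% at 250 bp, 20.4% at 1000 bp, 10.8% in the 1485 strongest entries, 16.7% with outermost starts alone, and 13.6% to 20.1% when a replicate was left out. With unlisted genes set at the lowest listed signal, the median strongest start signal was 34.4 for cohesin and 140.3 for condensin genes. It was 22.96 to 34.3 for cohesin and 22.96 to 62.1 for condensin genes in the replicates' own lists, whose scale differs. Summits nearer to the neighbour numbered 2, but 1 in the 1485 strongest entries and 1 to 2 when a replicate was left out. Member summits with a ZIPIC core string numbered 2, and 1 with the longer string alone. No paired analysis was possible because there is 1 group. With 2 replicates, a gene missing from a list cannot be told from one just below its lowest signal.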

Other observations

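Several regulators of cohesin had entries at their starts that fell short of the optimal set. wapl, which releases cohesin from chromatin, had a pooled signal of 110 (rank 3593), with rank 1757 in replicate 3 and no entry in replicate 2. The separase gene Sse had a pooled signal of 76.1 (rank 6200) and rank 3317 in replicate 3, again with none in replicate 2. Of the meiotic genes, solo had a pooled signal of 110.04 at a start it shares with vas, and c(2)M one of 73.4 at a summit on the start of GMF.

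In the SMC5/6 complex, which acts in DNA repair, SMC6 had a peak of signal 292 (rank 998), with ranks of 842 in replicate 2 and 1258 in replicate 3. SMC5 had one of signal 137 (rank 2629), with ranks of 1867 in replicate 2 and 4417 in replicate 3, and its summit lay nearer to CRIF (126 bp) than to SMC5 (152 bp). Nse1 had a pooled signal of 96.3 (rank 4413) and none in replicate 2. In replicate 3, 20 of the 24 listed genes (83.3%) had a start entry, against 56.3% of all coding genes, and in replicate 2 there were 7 (29.2%), against 31.7%.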
